A study of Mus musculus with 12 samples.

Results

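Interferon regulatory factors (IRFs) are the transcription factors that switch on interferon genes and the genes that answer interferon, and 7 of them are described here: Irf1, Irf2, Irf4, Irf5, Irf7, Irf8 and Irf9. They were chosen by name, as a list that leaves out Irf3 and is not the whole family, and are 7 of the 53647 mouse genes counted in each library. All 7 symbols matched a gene in the files, and 6 passed the filter on low counts. Irf4 did not pass and was not tested. Messenger RNA was sequenced in 12 libraries that form 6 groups of 2, all from cells with the genotype label WT. DC2.4 is a line of mouse dendritic cells made immortal by oncogenes, and 4T1 is an epithelial tumour line from a mouse mammary carcinoma. The study asked how uniSTING, a designed protein that imitates the innate immune adaptor STING, acts on type I interferon signalling. Cells of each line were given mRNA for uniSTING, or mRNA for the fluorescent protein EGFP, which the labels call Mock. The mRNA was carried by a transfection reagent or by lipid nanoparticles, and the labels do not say which served which library or for how long. The last pair of groups is DC2.4 cells exposed for 24 h to extracellular vesicles shed by 4T1 cells that had received uniSTING mRNA (EXOuniSTING) or Mock mRNA (EXOmock). Each group has a library of preparation 1 and a library of preparation 2. No label says that these are separate cultures, so p-values measure only how far such libraries differ, and that spread may be technical.

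IRFs share a DNA-binding domain that reads GAAA repeats, the core of the interferon-stimulated response element (ISRE). STING signals through the kinase TBK1 to Irf3, which starts the first wave of interferon beta. Secreted interferon then acts through its receptor, and Irf9 joins STAT2 in ISGF3, the complex that binds ISREs. Irf7 is itself an ISGF3 target and carries the later, wider interferon alpha wave. Irf5 is activated below Toll-like receptors and drives inflammatory cytokines in myeloid cells. Irf1 is an activator induced by interferon gamma, and Irf2 occupies many of the same sites and is best known as its antagonist. Irf8 and Irf4 are found mainly in blood cells, act with the ETS factor PU.1 (Spi1) and with BATF factors, and specify dendritic cell subsets.

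The cell identity read from marker genes went against the labels of the mRNA groups, and the names used below are therefore those of the labels only. In the 4 libraries labelled DC2.4 that were given mRNA, Ptprc, the pan-leukocyte surface marker, had 0 to 19 counts and Spi1 had 1 to 5 counts, while the epithelial adhesion gene Epcam stood at 286 to 318 counts per 1000000 counts of the library (CPM). The 4 libraries labelled 4T1 held Ptprc at 310 to 327 CPM, Spi1 at 184 to 191 CPM, and Epcam had 0 to 5 counts. The 4 vesicle libraries, labelled DC2.4, had 302 to 310 CPM of Ptprc and 0 to 11 counts of Epcam. A list of 20 leukocyte markers summed to 164 to 221 CPM in the DC2.4-labelled mRNA libraries, 10310 to 10600 CPM in the 4T1-labelled ones and 13630 to 16590 CPM in the vesicle libraries. A list of 20 epithelial markers summed to 6011 to 6239, 165 to 167 and 132 to 148 CPM in the same order. Total counts per library ran from 14059040 to 25975658, and a floor of 3 counts corresponds to 0.115 to 0.213 CPM, which covers counting error only. The 6 preparation 1 libraries held 171 to 2117 counts of the insulin gene Ins2 and 421 to 729 of the lung gene Sftpc, both with 0 counts in all 6 preparation 2 libraries. The changes of the main members are for that reason also given within each preparation.

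On GRCm39, the build of the deposited files, Irf1 (ENSMUSG00000018899) spans chr11:53660841-53669200 on the plus strand, Irf2 (ENSMUSG00000031627) chr8:47192767-47300493 and Irf4 (ENSMUSG00000021356) chr13:30933209-30950959. Irf5 (ENSMUSG00000029771) spans chr6:29526624-29541870, Irf8 (ENSMUSG00000041515) chr8:121463097-121483433 and Irf9 (ENSMUSG00000002325) chr14:55841028-55847487, all on the plus strand. Irf7 (ENSMUSG00000025498) lies on the minus strand at chr7:140842619-140846394. Counting did not use strand, so reads in exons shared with a neighbour on the other strand cannot be told apart. Irf2, Irf4 and Irf8 shared no exonic base with another gene. Irf5 shared 411 of its 2905 exonic bases with Tnpo3, an importin gene on the opposite strand that had 1540 to 3468 counts per library. Irf1 shared 795 of 3975 bases with Gm17334, an opposite-strand gene model of 4 to 25 counts. The overlaps of Irf7 with Phrf1 (45 bases, opposite strand) and of Irf9 with Rnf31 (123 bases, same strand) covered 1.19% and 2.28% of their exonic bases.

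The start regions of 5 members are shown because the members differ in which interferon-linked motifs they carry there. Each is a 300-base window from 250 bases before to 50 after a transcript start, taken from RefSeq on GRCm38.p6, an earlier build than that of the counts, and all 7 members matched at least 1 window. Capitals mark every match, on either strand, to the ISRE core (GAAA, any 2 bases, GAAA), the STAT-binding GAS element (TTCNNNGAA), the ETS-IRF composite (GGAA, any 2 bases, GAAA) or the NF-kB consensus. The windows of Irf7 (chr7:141266375-141266674, minus strand) and Irf9 (chr14:55603735-55604034, plus strand), the members that rose most, come first. Those of Irf1 (chr11:53769764-53770063), Irf2 (chr8:46739495-46739794) and Irf8 (chr8:120736108-120736407), all on the plus strand, follow.
Irf7: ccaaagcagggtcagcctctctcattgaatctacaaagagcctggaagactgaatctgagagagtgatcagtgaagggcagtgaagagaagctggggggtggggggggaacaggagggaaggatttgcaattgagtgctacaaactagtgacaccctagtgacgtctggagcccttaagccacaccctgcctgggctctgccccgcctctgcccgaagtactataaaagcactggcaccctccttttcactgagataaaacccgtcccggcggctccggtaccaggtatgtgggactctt
Irf9: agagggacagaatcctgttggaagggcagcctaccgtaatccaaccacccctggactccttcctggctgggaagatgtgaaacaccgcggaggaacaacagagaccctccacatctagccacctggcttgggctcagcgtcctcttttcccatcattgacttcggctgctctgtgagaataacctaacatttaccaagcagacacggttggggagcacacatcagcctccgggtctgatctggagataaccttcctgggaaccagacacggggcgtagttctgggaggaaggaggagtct
Irf1: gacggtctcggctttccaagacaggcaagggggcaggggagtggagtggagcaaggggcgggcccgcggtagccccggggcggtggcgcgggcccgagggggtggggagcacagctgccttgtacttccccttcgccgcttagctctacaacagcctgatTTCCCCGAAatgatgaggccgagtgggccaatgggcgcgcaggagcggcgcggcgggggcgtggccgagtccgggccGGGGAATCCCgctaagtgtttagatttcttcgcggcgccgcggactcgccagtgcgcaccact
Irf2: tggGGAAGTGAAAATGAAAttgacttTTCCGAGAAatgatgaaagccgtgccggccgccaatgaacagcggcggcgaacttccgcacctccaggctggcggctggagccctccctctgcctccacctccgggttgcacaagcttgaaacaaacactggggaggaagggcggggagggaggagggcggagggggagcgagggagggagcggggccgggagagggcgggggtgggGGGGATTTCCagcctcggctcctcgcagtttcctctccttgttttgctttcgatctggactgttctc
Irf8: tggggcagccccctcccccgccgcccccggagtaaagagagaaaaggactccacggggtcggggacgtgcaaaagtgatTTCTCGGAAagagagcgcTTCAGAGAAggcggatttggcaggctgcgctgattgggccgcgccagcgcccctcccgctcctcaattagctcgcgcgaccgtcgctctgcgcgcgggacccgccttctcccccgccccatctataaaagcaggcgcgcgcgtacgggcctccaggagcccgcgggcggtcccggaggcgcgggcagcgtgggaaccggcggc

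Irf2 alone among the 7 members held an ISRE core and an ETS-IRF composite, at -241 to -232 and -247 to -238 from its start, so these matches share bases. Irf2 also held a GAS match at -224 to -216 and an NF-kB match at -17 to -8. Irf1 held a GAS match at -90 to -82 and an NF-kB match at -13 to -4, which reads on both strands. Irf8 held 2 GAS matches, at -171 to -163 and -153 to -145. Irf7, Irf9, Irf4 and Irf5 held none of the 4 motifs, nor did the second windows of Irf1, Irf8 and Irf9. Of 32851 RefSeq promoter windows of this kind, 3.44% held the ISRE core, 8.30% GAS, 2.72% the composite and 8.46% the NF-kB consensus. A match is a string of letters and not a bound site, and its absence says only that these letters are not in this window.

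**Figure D1:**
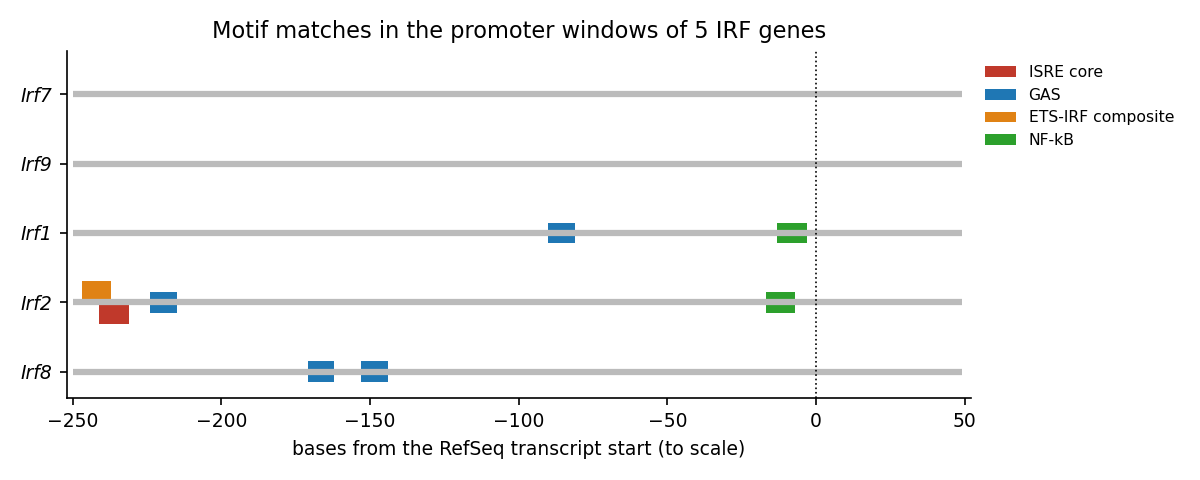
Motif matches drawn to scale along the promoter windows of 5 IRF genes; the horizontal axis is the distance in bases from the RefSeq transcript start, and each coloured block is 1 match (overlapping matches are drawn above and below the line). Irf7 and Irf9 carry no block, Irf8 carries 2 GAS matches and Irf2 carries all 4 kinds.

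Irf7 and Irf9 rose with uniSTING mRNA in the libraries labelled DC2.4 and with vesicles from uniSTING-treated cells, while in the libraries labelled 4T1 Irf7 rose little and Irf9 did not pass the test. Irf8 rose under the DC2.4 label and fell under the 4T1 label with mRNA, Irf1 fell under the 4T1 label, and both moved by 1.22-fold or less in these comparisons. Irf2 fell slightly under the DC2.4 label with mRNA, and Irf5 passed the test in none of the 3 comparisons. With mRNA under the DC2.4 label, 4 of the 6 tested members passed the test, 3 higher and 1 lower, beside 41.7% of all 14863 genes tested (20.8% higher, 20.9% lower); without DC2.4 Mock replicate 1 only 2 passed. Under the 4T1 label 3 passed, 1 higher and 2 lower, beside 28.3% of all genes (12.6% higher, 15.7% lower). That count was 1 without 4T1 Mock replicate 1 or 4T1 uniSTING replicate 2 and 2 without either of the other libraries or with DESeq2. With vesicles 2 passed, both higher, beside 16.1% (7.96% higher, 8.14% lower). The test was edgeR's quasi-likelihood F test across all genes, with Benjamini-Hochberg adjusted p-values and a threshold of 0.05.

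**Figure D2:**
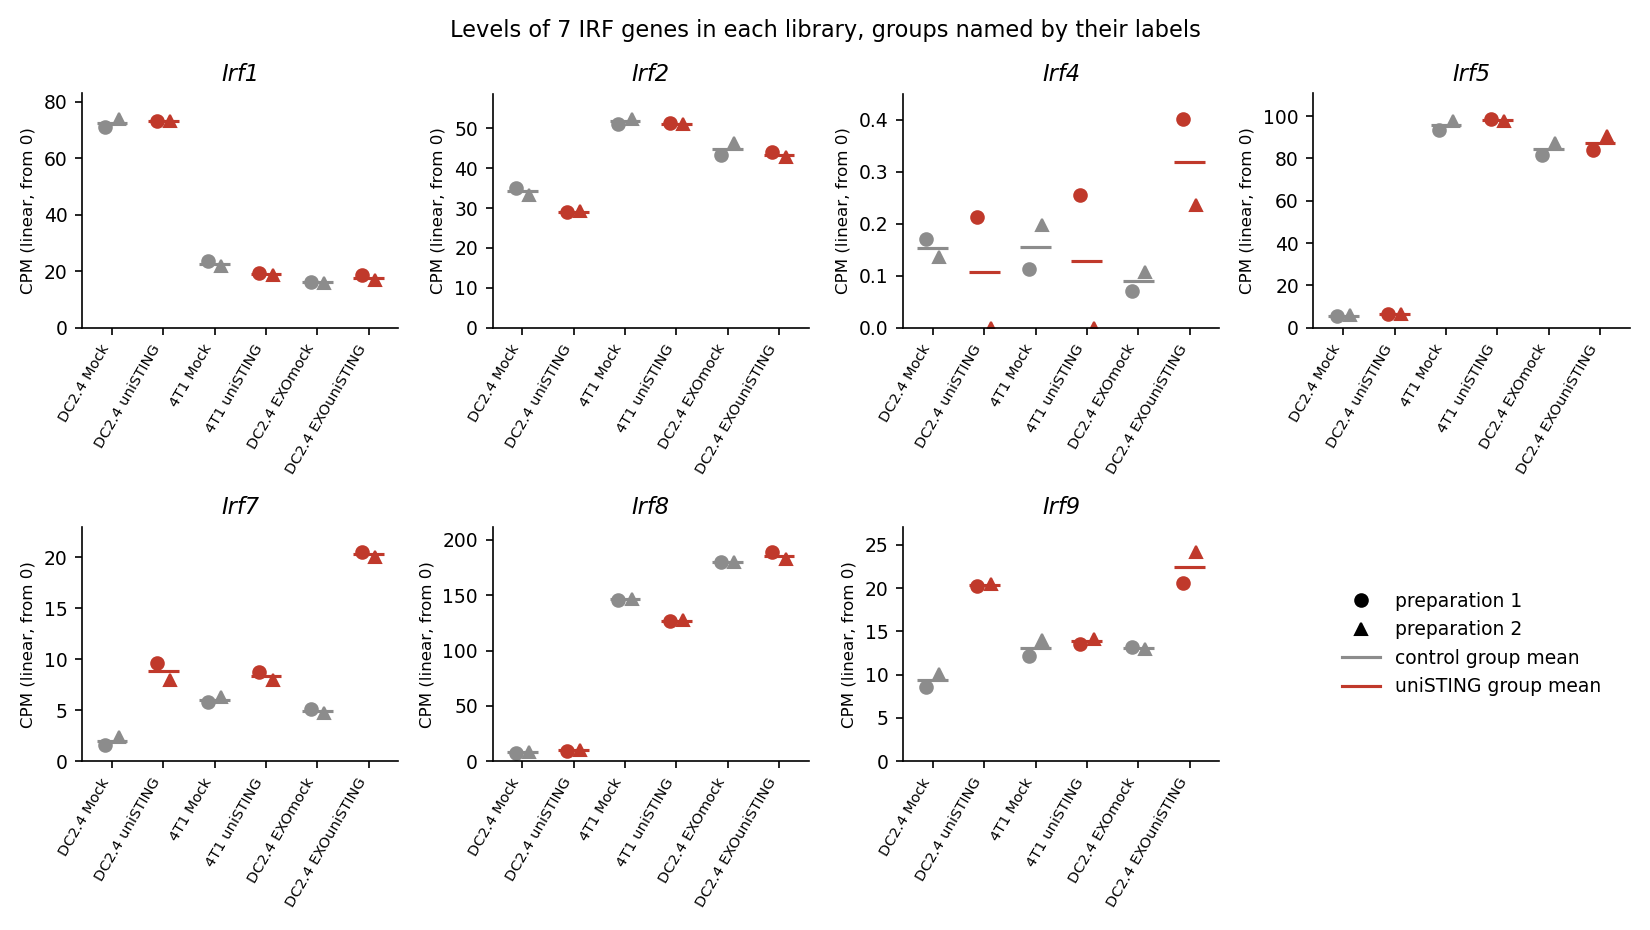
CPM of the 7 IRF genes in each of the 12 libraries, on a linear axis from 0 with its own scale for each gene; circles are preparation 1, triangles preparation 2 and bars the mean of the 2 libraries, grey for controls and red for uniSTING groups. Irf5 and Irf8 separate the DC2.4-labelled mRNA libraries from all others, and Irf7 and Irf9 separate treated from control libraries under the DC2.4 label.

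Irf7, the amplifier of the interferon alpha wave, was the member that changed most. In the libraries labelled DC2.4 it stood at 1.60 and 2.405 CPM with Mock mRNA and at 9.66 and 7.94 CPM with uniSTING mRNA. Both treated libraries lay far above both controls. The rise was 4.35-fold, a log2 fold change of 2.12 (SE 0.17, edgeR adjusted p = 2.63e-07), and only 2.20% of tested genes had a larger rise. It was 2.61 on the log2 scale within preparation 1 and 1.74 within preparation 2.

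In the vesicle groups Irf7 stood at 5.12 and 4.71 CPM with EXOmock and at 20.5 and 20.1 CPM with EXOuniSTING. The groups did not overlap, and the EXOuniSTING libraries held the highest Irf7 levels of all 12. The rise was 4.14-fold, or 2.05 on the log2 scale (SE 0.15, edgeR adjusted p = 1.19e-06), with 2.00 and 2.09 within preparations 1 and 2. A larger rise was seen in 1.60% of genes. In the libraries labelled 4T1, Irf7 stood at 5.76 and 6.31 CPM with Mock mRNA and at 8.71 and 7.93 CPM with uniSTING mRNA. These groups did not overlap either, but the step was small, 1.34-fold or 0.43 on the log2 scale (SE 0.15, edgeR adjusted p = 0.0434). That call was lost with DESeq2 (adjusted p = 0.131) and without any 1 of the 4 libraries compared, with edgeR adjusted p of 0.0777 to 0.186.

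Irf9, the DNA-binding subunit of ISGF3, moved in the same comparisons by smaller steps. Under the DC2.4 label it stood at 8.63 and 10.1 CPM with Mock mRNA and at 20.3 and 20.5 CPM with uniSTING mRNA. The treated pair lay close together and well above the controls. The rise was 2.20-fold, 1.14 on the log2 scale (SE 0.11, edgeR adjusted p = 1.33e-06), with 1.25 and 1.04 within preparations 1 and 2. Irf9 stood at 13.2 and 13.0 CPM with EXOmock and at 20.6 and 24.2 CPM with EXOuniSTING, a rise of 0.78 on the log2 scale or 1.72-fold (SE 0.11, edgeR adjusted p = 0.000275). The groups did not overlap, and the rise was 0.65 and 0.90 within preparations 1 and 2. With the 4T1 label Irf9 stood at 12.2 and 14 CPM with Mock mRNA and at 13.5 and 14.2 CPM with uniSTING mRNA, so that the groups overlapped. The log2 difference there was 0.05, with a 95% interval of -0.18 to 0.28 and an edgeR adjusted p of 0.806.

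Irf1, the activator linked to interferon gamma, was the most abundant member in the DC2.4-labelled mRNA libraries and hardly moved there. It stood at 71.0 and 74.1 CPM with Mock mRNA and at 73.1 CPM in both uniSTING libraries, within the spread of the controls. The log2 difference was 0.03 (95% interval -0.07 to 0.13, edgeR adjusted p = 0.664). In the 4T1-labelled libraries Irf1 stood at 23.6 and 21.7 CPM with Mock mRNA and at 19.4 and 18.8 CPM with uniSTING mRNA. The treated pair lay below the controls, a fall of 0.27 on the log2 scale (log2 fold change -0.27, SE 0.06, edgeR adjusted p = 0.00564). The call was lost without 4T1 Mock replicate 1 (edgeR adjusted p = 0.0571) and without 4T1 uniSTING replicate 2 (0.0659). With vesicles Irf1 stood at 16.3 and 15.9 CPM in EXOmock and at 18.6 and 17.0 CPM in EXOuniSTING, a log2 difference of 0.13 that did not pass (95% interval -0.03 to 0.29, edgeR adjusted p = 0.30).

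Irf2, the factor that competes with Irf1, stood at 35.1 and 33.3 CPM with Mock mRNA and at 29.0 and 29.2 CPM with uniSTING mRNA under the DC2.4 label. The treated libraries lay below the controls. Irf2 fell by 0.21 on the log2 scale (SE 0.06, edgeR adjusted p = 0.0062). The fall was -0.11 once the trend of fold change with gene length over all genes was removed, and the call was lost without DC2.4 Mock replicate 1 (edgeR adjusted p = 0.0557). With the 4T1 label Irf2 stood at 51.1 and 52.4 CPM with Mock mRNA and 51.2 and 51.1 CPM with uniSTING mRNA, overlapping groups with a log2 difference of -0.05 (edgeR adjusted p = 0.515). In the vesicle groups it stood at 43.3 and 46.4 CPM with EXOmock and 44.0 and 42.8 CPM with EXOuniSTING, again overlapping, with a log2 difference of -0.05 (edgeR adjusted p = 0.541). Per transcript length, in transcripts per 1000000 (TPM), the ratio of Irf1 to Irf2 in DC2.4-labelled libraries was 3.76 and 4.14 with Mock mRNA and 4.69 and 4.67 with uniSTING mRNA. For the 4T1 label this ratio was 0.858 and 0.771 with Mock mRNA and 0.707 and 0.684 with uniSTING mRNA, and in the vesicle groups 0.70 and 0.640 became 0.785 and 0.738. The ratio thus lay above 1 in each DC2.4-labelled mRNA library and below 1 in the other 8.

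Irf5, the factor downstream of Toll-like receptors, stood far lower in the DC2.4-labelled mRNA libraries than in all others. It differed little between treated and control libraries. Under the DC2.4 label with mRNA it stood at 5.43 and 5.94 CPM in Mock and at 6.42 and 6.34 CPM in uniSTING libraries. With the 4T1 label it stood at 93.6 and 97.7 CPM in Mock and at 98.9 and 97.9 CPM in uniSTING libraries. In the vesicle groups it stood at 81.6 and 87.3 CPM with EXOmock and at 83.8 and 90.5 CPM with EXOuniSTING. The vesicle groups overlapped, and the 2 mRNA pairs did not but stood close together. The log2 differences were 0.18, 0.01 and 0.05 in the same order, with edgeR adjusted p of 0.289, 0.951 and 0.58. Their 95% intervals ran from -0.09 to 0.45, -0.09 to 0.11 and -0.06 to 0.15. How many of the 95 to 159 Irf5 counts per DC2.4-labelled mRNA library came from the shared Tnpo3 exons was not tested.

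Irf8, the lineage factor of monocytes and type 1 dendritic cells, stood at 7.54 and 8.39 CPM with Mock mRNA and at 9.55 and 9.77 CPM with uniSTING mRNA under the DC2.4 label. The groups did not overlap, and the rise was 0.29 on the log2 scale (SE 0.08, edgeR adjusted p = 0.0184). The call was lost without DC2.4 Mock replicate 1 (edgeR adjusted p = 0.164) and without DC2.4 uniSTING replicate 2 (0.109). Under the 4T1 label Irf8 was 1 of the 2 most abundant members, at 146 and 147 CPM with Mock mRNA and 127 CPM in both uniSTING libraries. It fell by 0.23 on the log2 scale (SE 0.03, edgeR adjusted p = 3.85e-05), by 0.22 and 0.24 within preparations 1 and 2. Along with this fall, 10 of the 20 leukocyte markers were lower and 4 higher in the same libraries, beside 15.7% and 12.6% of all genes. The marker sum was 10580 to 10600 CPM with Mock and 10310 CPM with uniSTING mRNA. Without the lysozyme gene Lyz2 the sum of the other 19 was 7729 to 7738 CPM with Mock and 7029 to 7048 CPM with uniSTING mRNA. The part of those markers in the Irf8 difference was not tested. With vesicles Irf8 stood at 180 CPM in both EXOmock libraries and at 189 and 183 CPM in EXOuniSTING, a log2 difference of 0.04 (95% interval -0.02 to 0.11, edgeR adjusted p = 0.327). The leukocyte marker sum was 16510 to 16590 CPM in the EXOmock and 13630 to 14400 CPM in the EXOuniSTING libraries. Most of that gap was Lyz2, at 8613 to 8638 and 5769 to 6545 CPM, which did not pass (edgeR adjusted p = 0.206). The other 19 markers summed to 7900 to 7955 CPM in EXOmock and 7850 to 7860 CPM in EXOuniSTING libraries, and the part of the markers in the vesicle results was not tested.

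Irf4, the partner of PU.1 and BATF in type 2 dendritic cells and B cells, was at or near the detection limit everywhere, with 0 to 6 counts per library. It had 3 and 3 counts with Mock mRNA and 4 and 0 with uniSTING mRNA under the DC2.4 label, and 2 and 5 against 5 and 0 under the 4T1 label. The EXOmock libraries had 1 and 2 counts and the EXOuniSTING libraries 6 and 5, the only compared groups that did not overlap. Scaled to the library totals, the ratio of the 11 EXOuniSTING counts to the 3 EXOmock counts was 3.32, with an exact 95% interval for counting error of 0.878 to 18.5. For the mRNA groups it was 0.600 (0.125 to 2.53) under the DC2.4 label and 0.675 (0.169 to 2.47) under the 4T1 label. All 3 intervals include 1, so a difference in Irf4 was not detectable at this depth.

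**Figure D3:**
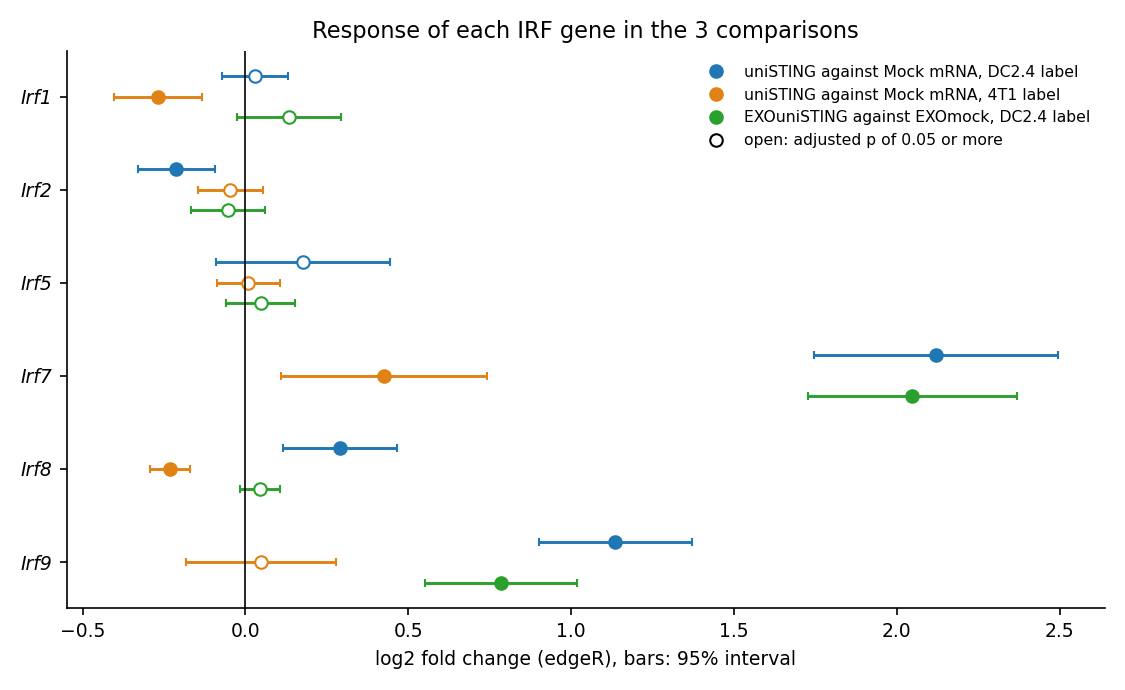
Log2 fold change of the 6 tested IRF genes in the 3 comparisons, from edgeR, with 95% intervals as bars; filled points had an adjusted p below 0.05 and open points did not, and Irf4 is left out because it was not tested. Irf7 and Irf9 lie far to the right for mRNA (2.12 and 1.14) and vesicles (2.05 and 0.78) under the DC2.4 label, and all other points lie between -0.27 and 0.43.

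The responses themselves were compared, since a call in 1 comparison and none in another does not show a difference. The mRNA response under the DC2.4 label was more positive than that under the 4T1 label for 4 of 6 members, beside 31.1% of all genes with a difference in either direction (16.0% higher). The differences of log2 fold changes were 1.70 for Irf7 (SE 0.23, edgeR adjusted p = 6.7e-05), 1.09 for Irf9 (SE 0.15, 9.17e-05), 0.52 for Irf8 (SE 0.09, 0.000336) and 0.30 for Irf1 (SE 0.08, 0.00985). The Irf8 responses had opposite signs under the labels. For Irf1 the change was 0.03 under the DC2.4 label, which did not pass, and -0.27 under the 4T1 label. The Irf1 difference was lost with DESeq2 (adjusted p = 0.0626) and without 4T1 uniSTING replicate 2 (edgeR adjusted p = 0.0552). Irf2 and Irf5 did not pass, at -0.17 (95% interval -0.32 to -0.01, edgeR adjusted p = 0.0995) and 0.17 (95% interval -0.12 to 0.45, edgeR adjusted p = 0.383).

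The vesicle response was more positive than the mRNA response under the 4T1 label for the same 4 members, beside 28.0% of all genes (15.0% higher). For Irf1 and Irf8 the vesicle changes, 0.13 and 0.04, did not pass. Their falls under the 4T1 label, -0.27 and -0.23, were larger in size. The differences were 1.62 for Irf7 (SE 0.21, edgeR adjusted p = 6.55e-05), 0.74 for Irf9 (SE 0.15, 0.00249), 0.40 for Irf1 (SE 0.10, 0.00688) and 0.28 for Irf8 (SE 0.04, 0.000164). Irf2 and Irf5 differed by -0.01 and 0.04, with 95% intervals of -0.16 to 0.14 and -0.11 to 0.18. Both differences of responses use the same 4 libraries labelled 4T1 and are not independent of each other. The mRNA and vesicle responses under the DC2.4 label were not tested against each other.

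Among the control libraries, all 6 tested members differed between the Mock groups, 5 higher and 1 lower under the 4T1 label, beside 83.0% of all genes (40.5% higher, 42.4% lower). Irf8 was 17.3-fold and Irf5 15.9-fold higher under the 4T1 label than under the DC2.4 label, log2 differences of 4.11 (SE 0.05, edgeR adjusted p = 7.21e-18) and 3.99 (SE 0.08, 1.04e-15). Irf7 was 2.82-fold, Irf2 1.44-fold and Irf9 1.33-fold higher under the 4T1 label, and Irf1 was lower, with a log2 difference of -1.76 (SE 0.05, edgeR adjusted p = 2.76e-13). The Irf9 difference, 0.41 on the log2 scale (edgeR adjusted p = 0.00408), did not pass without DC2.4 Mock replicate 1 (0.0514) or 4T1 Mock replicate 2 (0.0587). Set against the 4T1-labelled Mock mean, the DC2.4-labelled Mock libraries held 5.94% of the Irf5 level and 5.45% of the Irf8 level, but 0.0734% of Ptprc, 0.0389% of Spi1 and 1.64% of the summed leukocyte markers. In bulk RNA, fewer cells of a type and less RNA per cell cannot be told apart.

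EXOmock libraries differed from 4T1-labelled Mock libraries in 4 of 6 members, 1 higher and 3 lower, beside 53.7% of all genes (26.1% higher, 27.6% lower), although both sets carry leukocyte markers. Irf8 was higher by 0.30 on the log2 scale (SE 0.03, edgeR adjusted p = 4.8e-07). Irf1 was lower at -0.49 (SE 0.07, edgeR adjusted p = 3.15e-05), Irf2 at -0.20 (SE 0.05, 0.00308) and Irf5 at -0.18 (SE 0.05, 0.00558). With the length trend removed Irf2 stood at -0.08. The Irf5 call was lost with upper-quartile scaling (edgeR adjusted p = 0.0625), without 4T1 Mock replicate 2 (0.0582) and without EXOmock replicate 1 (0.0582). These groups differ in label and in treatment, which cannot be told apart.

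Ordered by mean CPM over the 6 groups, Irf7 ran from 20.3 ± 0.309 (SD, n = 2) in EXOuniSTING down to 2.00 ± 0.569 in DC2.4 Mock. Its only neighbours in that order whose libraries overlapped were DC2.4 uniSTING and 4T1 uniSTING. Irf9 was highest in EXOuniSTING at 22.4 ± 2.49 CPM and next in DC2.4 uniSTING at 20.4 ± 0.134 CPM, without overlap. The 3 groups below them, 4T1 uniSTING, 4T1 Mock and EXOmock, overlapped for Irf9 at 13.1 to 13.9 CPM, and DC2.4 Mock was lowest at 9.35 ± 1.02 CPM. Irf8 had no overlapping neighbours, in the order EXOuniSTING, EXOmock, 4T1 Mock, 4T1 uniSTING, DC2.4 uniSTING and DC2.4 Mock. For Irf5 the 4T1-labelled groups stood above the vesicle groups, whose libraries overlapped, and the DC2.4-labelled mRNA groups stood far below. Irf2 followed the same order of labels, with overlap within the 4T1 pair and within the vesicle pair. Irf1 had the overlapping DC2.4-labelled mRNA groups on top, then the 4T1-labelled groups, then EXOuniSTING, and EXOmock lowest at 16.1 ± 0.248 CPM. Irf4 levels overlapped between neighbours except at the top, where EXOuniSTING stood apart.

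Read per transcript length, the summed level of the 7 genes was 86.6 ± 2.86 TPM (SD, n = 2) in DC2.4 Mock, 223 ± 4.32 TPM in 4T1 Mock and 198 ± 4.23 TPM in EXOmock. In DC2.4 Mock, Irf1 made up 64.6% of that sum and Irf2 16.4%, while Irf5, Irf9 and Irf8 took 6.92%, 6.14% and 4.00%. In 4T1 Mock, Irf5 made up 46.8% and Irf8 29.4%, and in EXOmock 42.5% and 37.3%. Irf7 was the least abundant member after Irf4 in all 3 control groups. With uniSTING mRNA under the DC2.4 label the Irf7 share went from 1.87% to 7.27% and the Irf9 share from 6.14% to 11.8%, which moved Irf7 from the sixth to the fourth place by mean TPM. In DC2.4 uniSTING replicate 2, however, Irf7 at 5.98 TPM stood below Irf5 at 6.21 TPM. With EXOuniSTING the Irf7 share went from 1.90% to 7.04%, again to the fourth place, and in 4T1 uniSTING it reached 3.22% and stayed in the sixth. Irf3, the family member that STING activates directly, did not pass in any of the 3 comparisons, with log2 differences of 0.04, 0.09 and -0.17 (edgeR adjusted p of 0.70, 0.355 and 0.115).

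**Figure D4:**
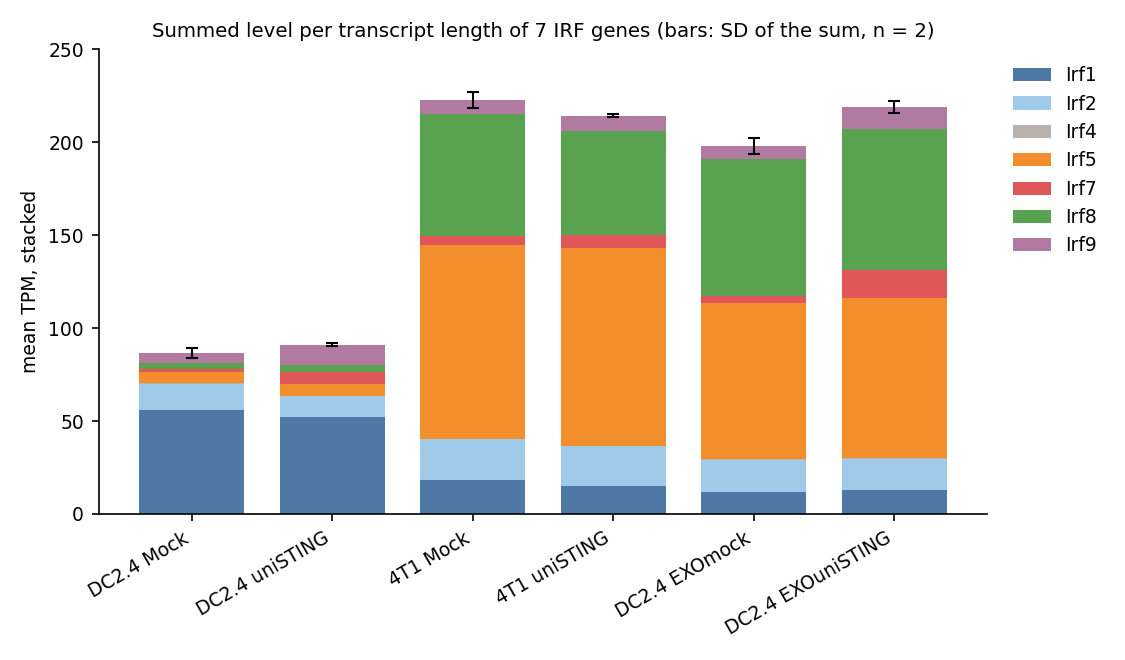
Mean TPM of the 7 IRF genes stacked by group, with error bars for the SD of the sum over 2 libraries. Irf1 fills most of the DC2.4-labelled mRNA bars (64.6% in Mock), Irf5 and Irf8 fill most of the others, and the Irf7 and Irf9 bands widen with uniSTING under the DC2.4 label.

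Genes with the most similar profile to each member were found from centred group means of log2 CPM over the 6 groups, among 12428 named genes, by the root mean square difference. For Irf7 these were Ifi27, an interferon-inducible gene, at 0.39 on the log2 scale, Agrp at 0.43 and Pdpn at 0.45, so no gene lay close to it. Agrp (0.0798 to 0.577 CPM) and Pdpn (0.114 to 0.584 CPM) rest on a few counts per library. For Irf9 they were Oas1b at 0.19, Col3a1 at 0.19, itself at only 0.171 to 0.837 CPM, and Rps27l at 0.21. Irf2 had much closer neighbours, led by Jak1, the kinase of interferon receptors, at 0.02, with Gorasp1 and Trpm7 at 0.03. Irf5 was followed by Retsat and Lhfpl2 at 0.08 and Cotl1 at 0.08, Irf8 by the lysosomal protease gene Ctsd at 0.10, Kdm7a at 0.13 and Rpl21 at 0.15, and Irf1 by Glo1, Fnbp1l and Cdkn1b at 0.10. The 6 group means rest on 12 shared libraries. For Irf1, Irf5 and Irf8 above all, they are dominated by the difference between the DC2.4-labelled mRNA groups and the other groups.

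Genes that ISREs control moved in the comparisons in which Irf7 and Irf9 rose. Their list was chosen with earlier results of these data known, so the counts are not independent support. The parts of ISGF3, Irf7 and Irf3 in these changes were not tested. With mRNA under the DC2.4 label 27 of 29 tested ISRE targets were higher and 0 lower, beside 20.8% and 20.9% of all genes. The median log2 fold change was 1.23 beside 0.00 over all tested genes. Of the 27, 18 rose at least 2-fold, beside 3.65% of all genes that passed with a change of that size in either direction. Ifit1, which keeps foreign RNA from being translated, rose by 2.20 as log2 (edgeR adjusted p = 5.12e-07), the tetherin gene Bst2 by 0.75 (8.47e-08) and Ifitm3, which blocks viral entry, by 0.64 (9.6e-09). With vesicles 24 of 29 were higher and 0 lower, beside 7.96% and 8.14% of all genes, with a median of 1.51 beside 0.00. At least 2-fold rises were seen for 17, beside 1.20% of all genes in either direction. The antiviral gene Rsad2 rose there by 3.27 (edgeR adjusted p = 1.19e-06) and the oligoadenylate synthetase genes Oasl2 and Oas3 by 2.92 (1.34e-07) and 2.13 (3.57e-08). In the 4T1-labelled libraries 7 of 29 were higher and 2 lower, beside 12.6% and 15.7% of all genes, with a median of 0.17 beside -0.01. At least 2-fold rises were seen for 3, beside 1.81% of all genes in either direction. The count of 2 was 1 without any of these libraries except 4T1 uniSTING replicate 1. Rsad2, at 0.462 against 1.58 CPM, rose by 1.72 (edgeR adjusted p = 0.000409), the ubiquitin-like modifier Isg15 by 1.07 (0.00105) and Ifitm3 by 0.43 (3.42e-07). Bst2 fell by 0.20 (edgeR adjusted p = 0.00453) and the nucleic acid sensor gene Zbp1, at 0.267 against 0.0447 CPM, fell by 2.42 (0.0254).

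The receptor and ISGF3 chain upstream of Irf9 moved by small steps, with calls in both directions only with mRNA under the DC2.4 label. Of its 10 tested genes, 3 were higher and 3 lower with mRNA under the DC2.4 label, beside 20.8% and 20.9% of all genes, with a median log2 fold change of 0.01 beside 0.00 over all genes. Stat2, an ISGF3 partner of Irf9, was higher by 0.49 (edgeR adjusted p = 0.000532), and the kinase gene Jak1 was lower at -0.26 (3.55e-06). Without DC2.4 Mock replicate 2 the counts were 1 and 1, and without DC2.4 uniSTING replicate 1 the lower count was 1. With the 4T1 label 0 were higher and 7 lower, beside 12.6% and 15.7%, with a median of -0.23 beside -0.01. The interferon receptor genes Ifnar1, Ifngr1 and Ifnar2 stood there at -0.32 (edgeR adjusted p = 1.82e-05), -0.36 (0.000138) and -0.27 (0.000257). With vesicles 2 were higher, Jak2 by 0.21 and Tyk2 by 0.20 (edgeR adjusted p = 0.00923 and 0.0326), and 0 lower, beside 7.96% and 8.14%, with a median of 0.09 beside 0.00. That count was 4 with the preparation number as a block, 1 with DESeq2, 0 without replicate 2 of either vesicle group and 1 without replicate 1 of either. Stat2, chosen here after its values were seen, stood at 0.27 with vesicles and did not pass (edgeR adjusted p = 0.06).

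The chain of sensors and kinases that activates Irf5 and Irf7 held 20 tested genes, of which 2 were higher and 2 lower with mRNA under the DC2.4 label, 0 and 5 under the 4T1 label, and 2 and 1 with vesicles. In either direction 41.7%, 28.3% and 16.1% of all genes were called in these comparisons. Some of the 20 genes were near 0 with mRNA under the DC2.4 label and could hardly be called there. Tlr8 and Tlr9 had 0 CPM in both groups, and Tlr7 stood at 0.26 CPM with Mock and 0.14 CPM with uniSTING mRNA. The medians were 0.00, -0.10 and 0.05 beside 0.00, -0.01 and 0.00 over all genes. Tbk1, the kinase of Irf3 and Irf7, was higher by 0.15 under the DC2.4 label (edgeR adjusted p = 0.0349), and the adaptor gene Traf3 lower at -0.38 (1.59e-06). The count of higher genes there was 0 with DESeq2 and without DC2.4 Mock replicate 1, and 1 without any of the other 3 libraries; the lower count was 1 without DC2.4 Mock replicate 1. The related kinase gene Ikbke was lower at -0.47 under the 4T1 label (edgeR adjusted p = 2.46e-05), where the lower count was 8 with limma-voom, and the adaptor gene Ticam1 was higher by 0.40 with vesicles (0.0188). Both counts with vesicles were 0 without replicate 1 of either vesicle group, the higher count was 1 without EXOuniSTING replicate 2, and the lower one was 0 without EXOmock replicate 2. Of 15 tested partners and co-regulators, 4 were higher and 6 lower under the DC2.4 label with mRNA. Counts were 2 and 4 under the 4T1 label and 2 and 2 with vesicles. In either direction these stand beside 41.7%, 28.3% and 16.1% of all genes. Batf had 0 CPM in both DC2.4-labelled mRNA groups, and Spi1 stood there at 0.074 CPM with Mock and 0.15 CPM with uniSTING mRNA. Without any 1 of the libraries compared, the 2 higher under the 4T1 label became 1 and the 2 lower with vesicles became 0 or 1, the latter without EXOuniSTING replicate 2. The acetyltransferase genes Crebbp and Ep300, co-activators of several IRFs, were lower at -0.81 and -0.65 under the DC2.4 label with mRNA (edgeR adjusted p = 3.37e-08 and 2.05e-08). Ep300 was higher by 0.16 under the 4T1 label and lower at -0.13 with vesicles (edgeR adjusted p = 0.00221 and 0.0327). Crebbp did not pass in either. Spi1, the partner of Irf8 and Irf4, was higher by 0.16 with vesicles (edgeR adjusted p = 0.00387). Batf3, their partner in dendritic cells, was higher by 1.29 under the DC2.4 label and by 0.84 under the 4T1 label (edgeR adjusted p = 0.00155 and 0.0268), the latter call being lost without any 1 of the 4 libraries. Its level was low, at 1.04 against 2.49 CPM and 1.42 against 2.59 CPM in the same order.

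Some genes linked to Irf1 passed the test in each comparison. Of 20 tested, 9 were higher and 1 lower under the DC2.4 label with mRNA, where Irf1 itself did not pass, beside 20.8% and 20.9% of all genes, with a median log2 fold change of 0.36 beside 0.00. They included the nitric oxide synthase gene Nos2 at 2.09 (edgeR adjusted p = 0.000172) and the immunity GTPase gene Igtp at 1.43 (0.000235). Nos2 was low there, at 0.438 CPM with Mock and 1.985 CPM with uniSTING mRNA. In the 4T1-labelled libraries 4 were higher (2 without 4T1 Mock replicate 2 or 4T1 uniSTING replicate 1) and 0 lower, beside 12.6% and 15.7% of all genes, with a median of 0.06, led by the immunoproteasome gene Psmb8 at 0.46 (edgeR adjusted p = 4.25e-05). With vesicles 2 were higher and 2 lower, near the 7.96% and 8.14% of all genes, with a median of 0.15, and 1 was lower without any of the vesicle libraries except EXOmock replicate 2. The peptide transporter gene Tap1 was higher by 0.49 and Nos2 lower at -0.58 (edgeR adjusted p = 6.39e-05 and 2.5e-05). Of 15 tested dendritic cell genes linked to Irf8 and Irf4, 4 were higher and 1 lower with mRNA under the DC2.4 label, 1 and 7 under the 4T1 label, and 2 and 2 with vesicles, beside 41.7%, 28.3% and 16.1% of all genes in either direction. The medians were 0.13, -0.10 and 0.02. Some of these genes were near 0 with mRNA under the DC2.4 label and could hardly be called there. Itgam had 0 CPM in both groups, and Itgax had 0 CPM with Mock and 0.053 CPM with uniSTING mRNA. The 1 higher gene under the 4T1 label was Batf3, and the 2 higher with vesicles became 1 without replicate 2 of either vesicle group. Id2, a factor needed for dendritic cell development, was higher by 1.24 under the DC2.4 label and by 0.40 with vesicles, and lower at -0.35 under the 4T1 label (edgeR adjusted p = 1.95e-07, 0.00104 and 0.000287). Sirpa, a surface marker of type 2 dendritic cells, was lower in both mRNA comparisons, at -0.41 and -0.35 (edgeR adjusted p = 6.45e-05 and 2.51e-07). The largest fall of this list under the 4T1 label was that of Cd24a. It stood at 38.2 CPM with Mock and 16.4 CPM with uniSTING mRNA, a log2 fold change of -1.26 (edgeR adjusted p = 1.07e-08). Of 20 leukocyte markers, 4 were higher and 1 lower under the DC2.4 label with mRNA, beside 41.7% of all genes in either direction. In the Mock and in the uniSTING group there, only 6 of the 20 had more than 20 counts in both libraries. With vesicles 4 were higher and 4 lower, beside 16.1% of all genes in either direction. Of 19 tested epithelial markers, 6 were higher and 2 lower under the DC2.4 label with mRNA, beside 41.7% of all genes in either direction. The higher ones included the keratin gene Krt19 at 1.00 and the claudin gene Cldn4 at 0.51 (edgeR adjusted p of 6.5e-06 and 1.28e-06). The lower ones were Tjp1 at -0.66 and Grhl2 at -0.26 (edgeR adjusted p of 6.53e-05 and 0.0189). With DESeq2 the counts of higher and lower markers were 1 and 1. The lower count was also 1 without replicate 2 of either group. The part of marker changes in these lists was not tested.

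**Figure D5:**
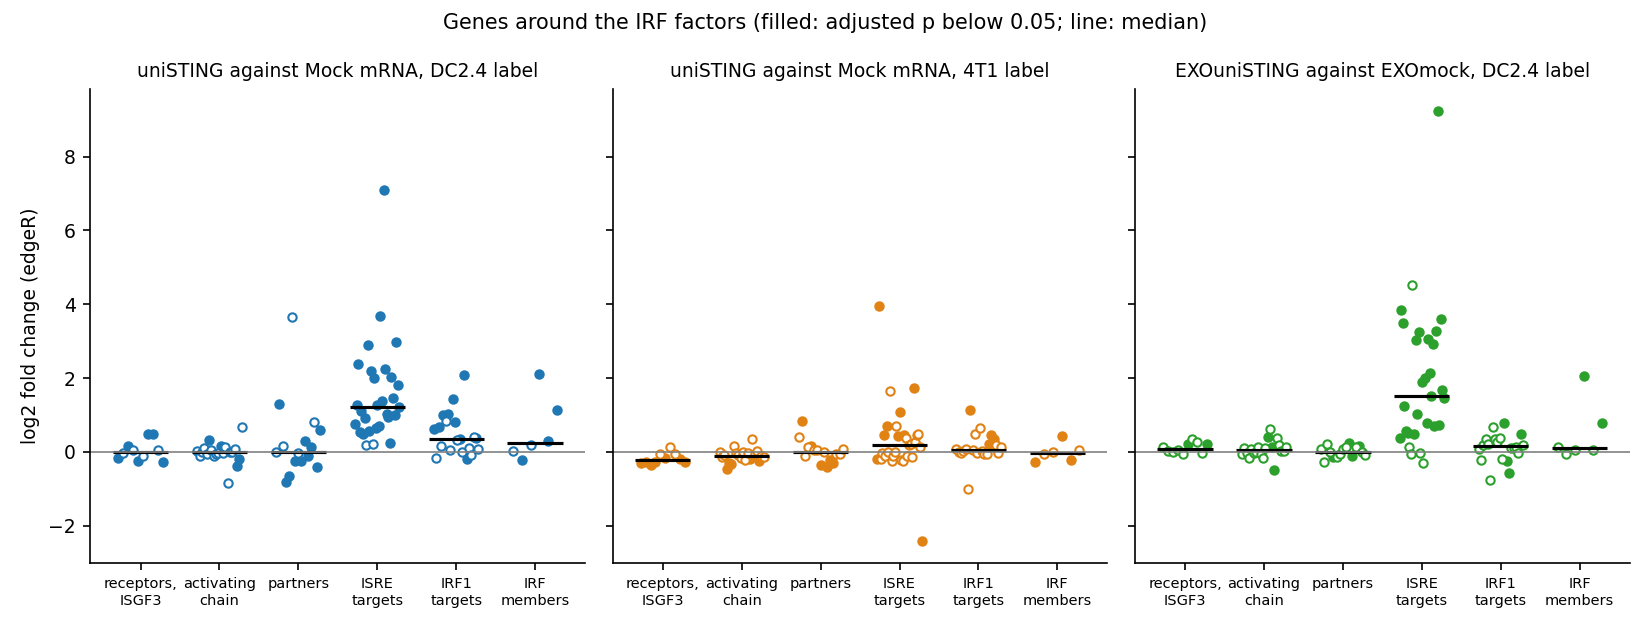
Log2 fold change from edgeR of the tested genes of 5 lists around the IRF factors and of the 6 tested IRF genes, in 1 panel per comparison; each point is a gene, filled where the adjusted p was below 0.05, and the line is the list median. The ISRE targets stand highest under the DC2.4 label with mRNA (median 1.23) and with vesicles (1.51), and lie near 0 under the 4T1 label (0.17).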

How the data were processed

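Total RNA, 1.0 µg per library, was sequenced in 12 libraries of 2 mouse cell lines, per the labels' protocols. Each value is a whole-number gene count from the tables the authors deposited: reads were aligned with HISAT2 to GRCm39, per the submitters' processing notes, and counted over exons with featureCounts (Subread 2.0.1) on Ensembl release 103 without a strand option, per the file headers. CPM uses the deposited totals and TPM the exonic lengths in the files. Counts of 14863 genes that passed filterByExpr were tested with edgeR 4.0.16 (R 4.3.3): TMM scaling, 1 mean per group over all 12 libraries, the quasi-likelihood test, and p-values adjusted by Benjamini-Hochberg over all genes at a threshold of 0.05. The biological coefficient of variation common to all genes was 3.05%. The procedure was tested on simulated counts. Each standard error is the log2 fold change over the root of its F value, and the Irf4 ratios carry exact binomial intervals at 95%.

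Replicates of a group differed by more than counting noise, with a mean chi-square per gene of 2.18 to 2.77, against 6.75 to 40.8 between treated and control. The main fit did not pair libraries by the preparation numbers of the labels. These numbers entered only the preparation block and the values within 1 preparation, both among the alternatives. The deviations of preparation 1 libraries correlated in each compared pair (0.546, 0.594 and 0.531). They also correlated between groups that were not compared, by 0.306 to 0.578. Alternatives were DESeq2 1.42.0, its size factors, upper-quartile factors, other filters, limma-voom (limma 3.58.1), only the libraries compared, the preparation block, removal of the length trend, values within 1 preparation and leaving out each library. With a library left out, the lone library of a group is assumed to vary like the others.

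The members and gene lists were chosen with earlier results of these data known. Named genes are the members, Irf3, the 3 genes per list, comparison and direction that had the lowest adjusted p, of which those with a known role are printed, the 3 genes of most similar profile per member, and genes with exons shared with a member. Some genes that this rule names are not reported here. Python 3.11.15 and matplotlib 3.10.9 served for tables and plots.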

Additional observations from a re-analysis of the deposited data

Results flagged for a closer look

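For 4 members the response to uniSTING mRNA differed between the labelled lines by a test of the difference itself (edgeR's quasi-likelihood test). DC2.4 label minus 4T1 label, the differences of log2 fold changes were 1.70 for Irf7 (adjusted p = 6.7e-05), 1.09 for Irf9 (9.17e-05), 0.52 for Irf8 (0.000336) and 0.30 for Irf1 (0.00985), the last lost with DESeq2 (0.0626) and without 4T1 uniSTING replicate 2 (0.0552). The vesicle response differed from the mRNA response under the 4T1 label for Irf7 by 1.62 (edgeR adjusted p = 6.55e-05), for Irf9 by 0.74 (0.00249), for Irf1 by 0.40 (0.00688) and for Irf8 by 0.28 (0.000164). The mRNA libraries carry marker genes that go against their labels, so a difference between labels is not shown here to be a difference between the named lines.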

How the results depend on the processing

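Of 552 tested values of single members under the alternatives, 519 kept their direction and side of the threshold, 17 lost the call, 0 gained one and 16 changed sign or came to 0. Of 78 values without a test (within 1 preparation, or with the length trend removed), 59 kept their direction and stayed near the main value. Others moved in size, such as Irf7 with mRNA under the DC2.4 label, and 4 changed sign: Irf5 (-0.031) and Irf9 (-0.016) under the 4T1 label within preparation 2, Irf2 with vesicles within preparation 1 (0.02) and Irf9 in EXOmock against 4T1 Mock with the length trend removed (0.034). The rises of Irf7 and Irf9 under the DC2.4 label, with mRNA and with vesicles, kept their call under each tested alternative. With the preparation number as a replicate block, 4, 3 and 2 members were called in the 3 comparisons, as without it, and no member's call changed. With 1 library left out, the number of members called ranged from 2 to 4 under the DC2.4 label with mRNA, lowest without DC2.4 Mock replicate 1, and from 1 to 2 under the 4T1 label, lowest without 4T1 Mock replicate 1 or 4T1 uniSTING replicate 2. It was 2 in each case with vesicles. The sign changes all concern small values that were not called. Irf2 in the vesicle minus 4T1-label difference was 0.010 with DESeq2, 0.008 with DESeq2 size factors and 0.001 without a filter, and Irf9 in EXOmock against 4T1 Mock was 0.063 with upper-quartile factors. With a library left out, these 2 values ranged from -0.061 to 0.054 and from -0.114 to 0.105, Irf5 from -0.019 to 0.099 in that same difference, from -0.023 to 0.055 under the 4T1 label and from -0.016 to 0.102 with vesicles, Irf9 from -0.045 to 0.17 under the 4T1 label and Irf2 from -0.101 to 0.002 with vesicles. The cause was not tested. Scaling moved the median of all genes by 0.02 or less in the 3 comparisons of treated with control libraries. In EXOmock against 4T1 Mock, upper-quartile factors moved Irf9 from -0.011 to 0.063 and Irf5 from -0.179 to -0.105. Depth limits Irf4, with 0 to 6 counts per library, and the 28 to 53 Irf7 counts of the DC2.4-labelled Mock libraries.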
